A study of Mus musculus with 6 samples.

Results

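The sites described here are 310 regions at which T-bet chromatin immunoprecipitation and sequencing (ChIP-seq) gave a peak in both wild-type (WT) libraries, no peak in the T-bet knockout (KO) library, and another such region close by on the same chromosome. They were chosen by the measured peak positions themselves. A WT replicate 1 peak had to overlap a replicate 2 peak by 1 bp or more and no KO peak, which left 726 shared sites, or 9.08% of the 7996 replicate 1 peaks. Another 34 met both a replicate 2 peak and a KO peak and were left out. A shared site entered the set when another shared site lay at a gap of 50 kb or less. That held for 310 of the 726, or 42.7% (exact 95% binomial interval 39.1 to 46.4%, which covers counting error over sites only). The other 416 shared sites had no such neighbour and are called isolated. Since the peak positions and the peak calls chose the sites, the nearness of the sites and their presence in both lists are descriptions, and no test of them was made.

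The cells were induced regulatory T cells (iTreg cells) of Balb/c background, derived in culture. Naive CD4+CD25- T cells, high in CD62L and low in CD44, were sorted from the lymphoid organs of mice aged 4 to 10 weeks. Antibodies to CD3 and CD28, each coated at 10 µg/ml, activated them, and a culture of 7 days with IL-2 at 20 ng/ml and TGF-β1 at 33 ng/ml followed. The groups were WT cells with 2 ChIP libraries and T-bet KO cells with 1 ChIP library, all precipitated with the same custom rabbit serum against T-bet, and 3 input libraries that were not analysed here. WT and KO cells shared the strain label and the culture. The KO allele is not described in the labels. They also leave unsaid if the WT replicates are different mice or different cultures, and the spread between the 2 libraries may be a technical one.

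T-bet, the product of Tbx21, is a transcription factor that contacts DNA through its T-box domain. It directs T helper 1 differentiation, in which it activates the interferon-γ gene and genes for chemokine receptors that guide cells to inflamed tissue. A subset of regulatory T cells also expresses it. Factors of this kind often bind several elements around one gene, and a run of nearby binding sites is one feature by which extended regulatory regions are recognised. The KO library is meant to show what the serum precipitates when T-bet is missing. It is 1 library of unknown depth with a short list. The lack of a KO peak at a site therefore does not show that the signal there depends on T-bet.

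The lists differed greatly in length, with 7996 peaks in replicate 1, 851 in replicate 2 and 78 in the KO list, and the depth of each library is unknown. The score deposited with each peak is the peak caller's own value, on a scale that is not stated, and a higher score marks a stronger call. Scores were used within a list. The median score of all peaks was 108 in replicate 1, 108 in replicate 2 and 104 in the KO list. The names of the replicate 2 and KO lists carry a number in common that the replicate 1 name lacks. What it marks is not stated, and its part in the differences between lists was not tested.

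The 310 sites formed 123 clusters when neighbours at a gap of 50 kb or less were chained. Most clusters were pairs: 82 held 2 sites, 24 held 3, 12 held 4, 4 held 5 and 1 held 6. The 17 clusters with 4 sites or more held 74 of the sites. From the first base of the first site to the last base of the last, the clusters covered 2642 kb in all. Their median span was 14.8 kb (exact 95% interval of the median 10.1 to 21.6 kb), with the shortest at 0.310 kb and the longest at 76.3 kb. A neighbour within 50 kb is common in a list as long as replicate 1: 66.6% of all its peaks had another replicate 1 peak that near, so the figure for the shared sites, which are far fewer, cannot be set against it directly.

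Some neighbouring sites lay on a single replicate 2 peak. The lists do not show if replicate 1 split 1 site there or replicate 2 joined several. Of the 187 neighbouring pairs inside clusters, 31, or 16.6% (11.6 to 22.7%), lay on the same replicate 2 peak. Their gaps had a median of 20 bp and reached 287 bp at most. These pairs involved 61 of the 310 sites, on 30 replicate 2 peaks, of which 29 were met by 2 sites and 1 by 3. The other 156 pairs lay on different replicate 2 peaks, with a median gap of 13.0 kb and a range from 157 bp to 47.9 kb. The 310 sites therefore correspond to 279 replicate 2 peaks. In 15 clusters, with 31 sites, every site fell on 1 replicate 2 peak. The remaining 108 clusters, with 279 sites, held 2 or more separate peaks in both WT lists. The median span of these 108 was 19.1 kb (14.2 to 29.0 kb), against 0.515 kb for the 15.

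Gaps between neighbouring shared sites were concentrated at short distances and thinned out up to the limit and past it. Under 10 kb there were 103 pairs, 72 of them on different replicate 2 peaks. From 10 to 20 kb and from 20 to 30 kb there were 26 pairs each, then 17, and 15 from 40 to 50 kb. Just beyond the limit, from 50 to 60 kb, there were 7, and 11 from 60 to 70 kb.

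**Figure D1:**
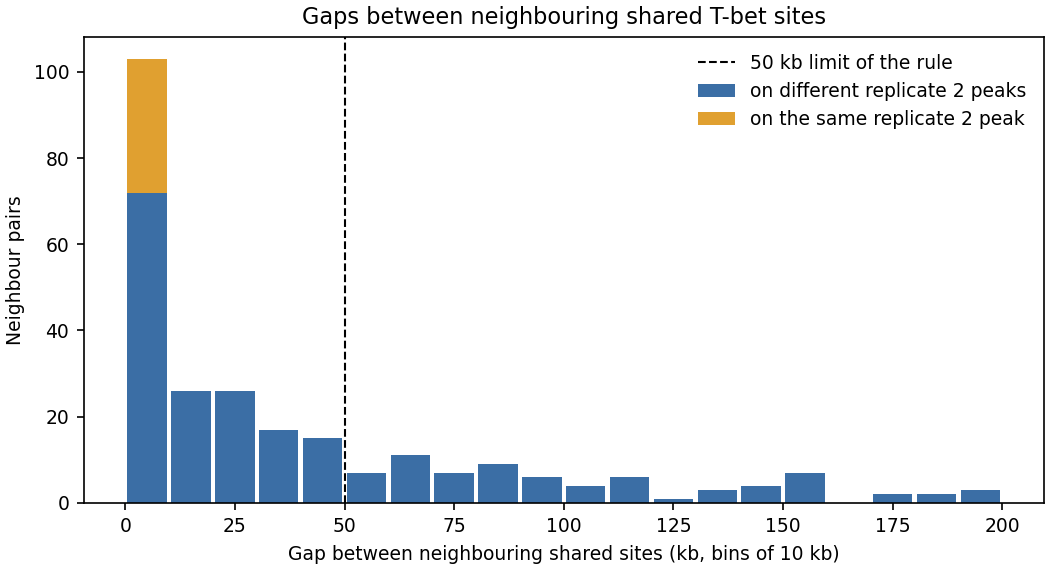
Number of neighbouring pairs of shared sites (y axis) by the gap between them in kb (x axis, bins of 10 kb up to 200 kb); colours separate pairs on 1 replicate 2 peak from pairs on different ones, and the dashed line marks the 50 kb limit. The first bin holds 103 pairs, all 31 pairs on a common replicate 2 peak among them, and the bin after the limit holds 7.

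The 5 pairs just inside the limit had gaps of 46.8 to 47.9 kb, and the 5 pairs just outside it had gaps of 50.0 to 56.8 kb. The widest gap that was kept separated chr4:82973770 (end of a site scoring 199 in replicate 1 and 119 in replicate 2) from chr4:83021643 (start of a site scoring 256 and 91.9). The narrowest gap not kept, 50.038 kb, lay between chr17:8082322 and chr17:8132361, whose sites had replicate 1 scores of 343 and 366. The first of them was a member through another neighbour and the second counted as isolated. Replicate 1 scores of the sites flanking the 5 gaps just inside ran from 97.4 to 635, and those flanking the 5 just outside from 147 to 1570, so the ranges overlapped and the limit is a convention. The closest pair, 2 bp apart, ended at chr17:35357003 and resumed at chr17:35357006. The 5 closest pairs as listed, with gaps of 2 to 9 bp, each lay on a single replicate 2 peak. A further pair, on chromosome 16, tied at 9 bp and also lay on a single replicate 2 peak.

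The cluster with most sites lay on chromosome 4, at chr4:32337386-32375205 in the mouse build mm9, and held 6 sites on 5 replicate 2 peaks over 37.8 kb. Its strongest site, chr4:32337605-32338342, scored 843 in replicate 1, and the replicate 2 peak there, chr4:32337334-32338399, scored 332. A weaker replicate 1 peak 40 bp before it, chr4:32337386-32337564 with a score of 87.1, lay on that same replicate 2 peak. The next site, chr4:32345015-32345499, scored 414 in replicate 1 and 77.2 in replicate 2. The last 3, beginning at 32350972, 32355066 and 32374939, scored 181, 136 and 127 in replicate 1 and 84.5, 90.7 and 75.7 in replicate 2. Both lists thus had their highest value at the first replicate 2 peak, and the other 4 replicate 2 peaks were below the median of their list, 108.

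A second cluster followed 86.9 kb further on, at chr4:32462110-32512918, with 4 sites on 4 replicate 2 peaks. Its replicate 1 scores ran from 153 to 439 and its replicate 2 scores from 88.6 to 107. It also held 6 replicate 1 peaks that no replicate 2 peak met, against 3 inside its neighbour.

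The cluster at chr14:45625109-45661244 held 5 sites on 4 replicate 2 peaks over 36.1 kb. Strong sites marked both ends. The first, chr14:45625109-45625893, scored 752 in replicate 1 and 382 in replicate 2, and the last, chr14:45660634-45661244, scored 610 and 152. Between them, chr14:45655874-45656212 scored 236 and 95.9, and the short peaks chr14:45629425-45629588 and chr14:45629648-45629785 scored 95.9 and 78.1 in replicate 1 on a common replicate 2 peak of 160.

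The cluster at chr19:53495480-53539439 spanned 44.0 kb. Of its 5 sites, each on its own replicate 2 peak, 4 had replicate 1 scores between 323 and 384. The last, chr19:53539286-53539439, scored 71.4, the lowest value of all 310 sites. In replicate 2 the order was different: chr19:53517607-53518100 came first with 244, followed by chr19:53508451-53508912 with 205, and the site at 53539286 scored 93.6. The strongest site of the cluster was therefore not the same one in the 2 lists.

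The remaining clusters of 5 were at chr8:129357819-129406110 and chr4:88647432-88704928. The first had replicate 1 scores from 130 to 428 on 5 replicate 2 peaks of 79.8 to 240, and its weakest replicate 1 site, chr8:129381757-129382009, scored 237 in replicate 2, close to the highest value of the cluster there. The second had replicate 1 scores from 87.8 to 384 on 4 replicate 2 peaks of 70.8 to 177. The 12 clusters of 4 sites spanned 5.11 to 76.3 kb with a median of 50.0 kb, and 8 of them lay on 4 separate replicate 2 peaks. Their highest replicate 1 scores ranged from 243 to 635.

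**Figure D2:**
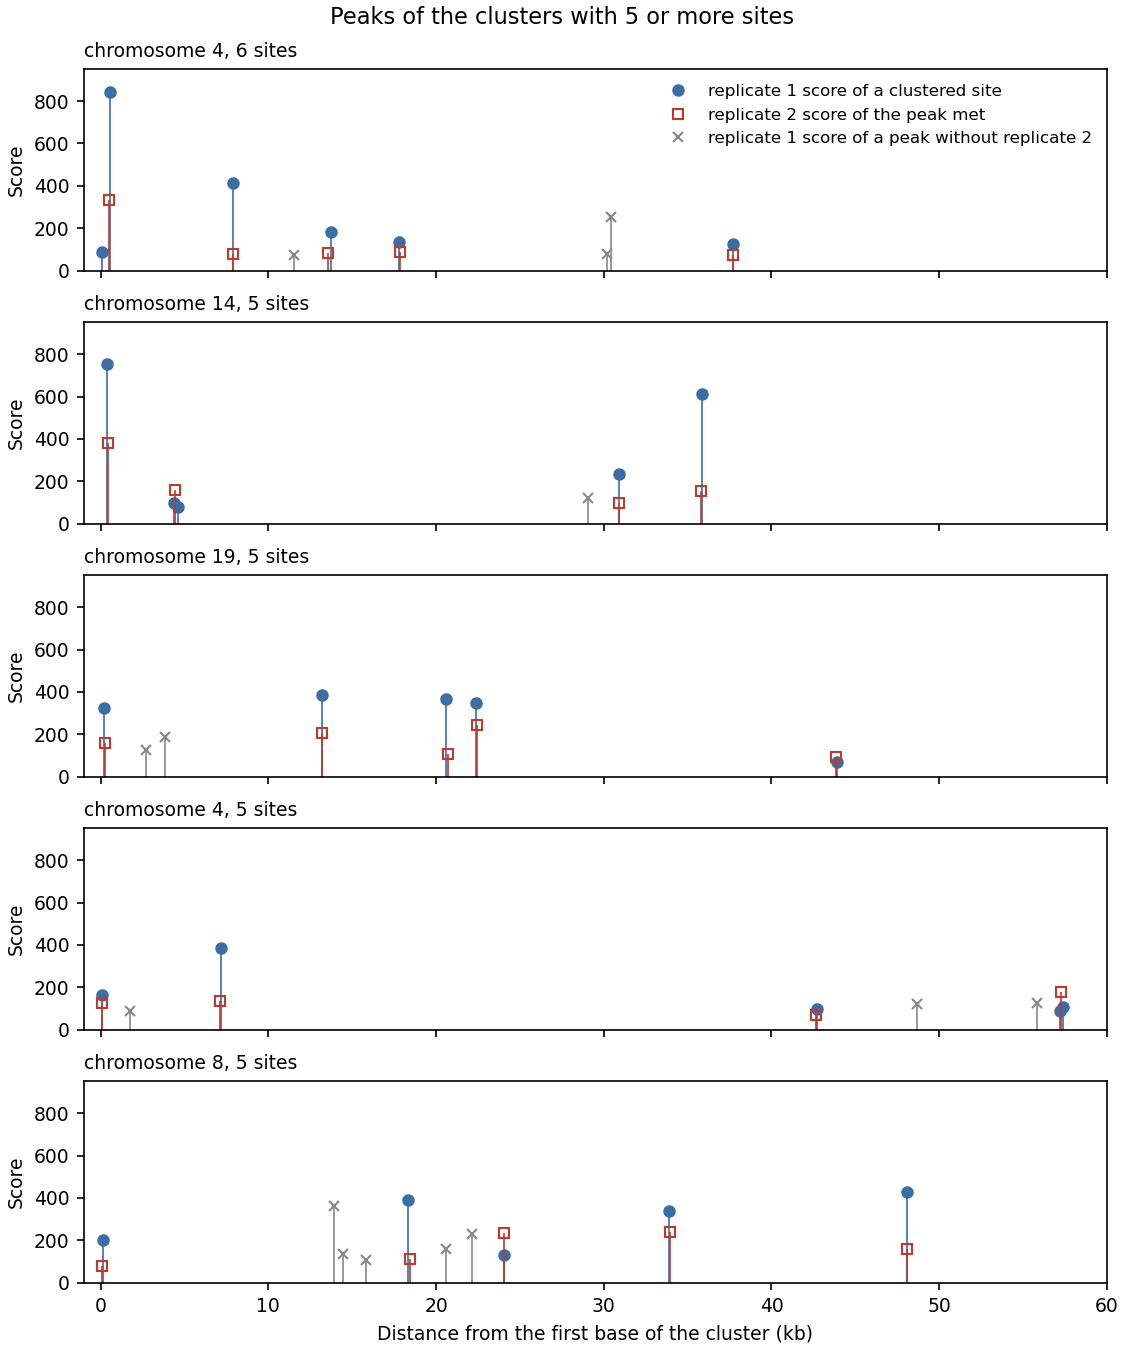
Scores (y axis, the peak caller's value, scale not stated and not comparable between lists) against the distance in kb from the first base of the cluster (x axis) for the 5 clusters with 5 or 6 sites; filled circles are clustered sites in replicate 1, open squares the replicate 2 peaks they met, and crosses replicate 1 peaks without a replicate 2 peak. On chromosome 4 the cluster of 6 sites has its highest point, 843 in replicate 1 and 332 in replicate 2, near its first base, and the cluster on chromosome 19 has 4 replicate 1 points between 323 and 384.

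Across the 310 sites, replicate 1 scores ran from 71.4 to 1312. The 10 highest lay in 10 different clusters, 6 of them pairs. The highest was chr17:8069068-8069512, with 1312 in replicate 1 and 513 in replicate 2, in a cluster of 3 whose other sites, chr17:8067586-8068106 and chr17:8081817-8082322, scored 517 and 343 in replicate 1 and 81.1 and 251 in replicate 2. The next was chr10:117355536-117355992, with 1286 and 615, and its partner 44831 bp before it, chr10:117310406-117310704, scored 263 and 81.9. In both clusters the strongest site stood far above its neighbours in replicate 1, and in both lists it was the same site.

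The third, chr7:88324323-88324836, scored 961 in replicate 1 and 399 in replicate 2. It counted as clustered only because replicate 1 listed a short peak of 149 bp, chr7:88324162-88324310 with a score of 79.0, on the same replicate 2 peak. The next, chr19:10837855-10838599 (852 and 127), entered in the same way, with the short peak chr19:10837720-10837844 scoring 84.8. Under a count of separate replicate 2 peaks both would be isolated sites.

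The rest of the 10 had replicate 1 scores of 734 to 845. They included chr1:40415596-40416032, with 845 in replicate 1 and 184 in replicate 2, and its partner 34087 bp further on, chr1:40450120-40450474, with 323 and 73.9. They also included chr5:54386416-54386968, with 784 and 118. Its neighbour 157 bp before it, chr5:54385742-54386258, scored 639 in replicate 1, and in replicate 2 it was the higher of the pair, with 203. At chr8:124806587-124806882 the scores were 749 and 317, and at chr1:163696695-163697107 they were 734 and 110. The last 2 of the 10, on chromosomes 4 and 14, are described with their clusters above.

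Ranked by the replicate 2 score, the sites on chromosomes 10 and 17 came first again, with 615 and 513. Then came chr9:32818854-32819224, with 464 in replicate 2 and 403 in replicate 1. A replicate 2 peak of 451 followed, which met chr4:133398853-133398976 and chr4:133399103-133399519, with replicate 1 scores of 73.6 and 338. After it came chr17:44745842-44746184 (437 in replicate 2, 301 in replicate 1), chr7:88324323 with its short neighbour, chr15:62610467-62610842 (395 and 556) and chr13:45972331-45972714 (389 and 529). Of the 10 highest sites by each score, 3 were the same.

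Within a cluster the lists had the same strongest site in some cases and different ones in others. Among the 108 clusters with 2 or more replicate 2 peaks, the peak with the highest replicate 2 score also carried the highest replicate 1 score in 62, or 57.4% (47.5 to 66.9%). In the 76 clusters with exactly 2 such peaks it was 44, or 57.9% (46.0 to 69.1%). With 2 peaks, unrelated lists would give an even split, which lies inside this interval. In clusters with 3 peaks it was 13 of 19, or 68.4% (43.4 to 87.4%). With 4 peaks it was 4 of 10, or 40.0% (12.2 to 73.8%), and with 5 peaks 1 of 3. Unrelated lists would give 1 in 3 with 3 peaks, which lies below that interval, and 1 in 4 with 4 peaks, which lies inside. No such level was worked out for the 108 clusters together, so their 57.4% cannot be set against an even split. Agreement beyond these levels was not tested. Where the strongest site was not the same, the 2 WT libraries differed in which site came first.

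The strongest site of each of these 108 clusters had a median replicate 1 score of 428, and the other 171 sites had a median of 205 (exact 95% interval 180 to 233). The isolated sites lay between, at 261. The first value is the highest of several and so exceeds a typical site by its construction.

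Clustered and isolated sites had almost the same replicate 1 scores, and clustered sites had higher replicate 2 scores. The replicate 1 median was 259 (exact 95% interval 236 to 288) over the 310 clustered sites and 261 (241 to 280) over the 416 isolated sites, with the middle 50% of sites between 147 and 399 and between 152 and 359. Among the highest 10% of the whole replicate 1 list lay 49.0% of the clustered sites and 49.0% of the isolated ones. The replicate 2 median was 124 (116 to 131) for clustered and 104 (97.7 to 110) for isolated sites. Counted once per replicate 2 peak it was 125 (116 to 132) over the 279 peaks. A score of 100 or more in both lists was found at 194 clustered sites, or 62.6% (56.9 to 68.0%), and at 206 isolated sites, or 49.5% (44.6 to 54.4%). Sites are not replicates of a condition and neighbours in a cluster are not independent, so the intervals describe counting error and the differences were not tested.

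Sites that shared a replicate 2 peak lowered the replicate 1 median of the clustered sites. Over the 61 sites that shared a replicate 2 peak, the median was 122 for the replicate 1 score and 204 bp for the width. Over the 249 sites alone on theirs, it was 298 (266 to 323) for the score and 358 bp for the width. No isolated site shared its replicate 2 peak with another shared site. The sites alone on their peak thus had a higher replicate 1 median than the isolated sites. With sites on the same replicate 2 peak counted as 1, the medians of clustered and isolated sites were 288 and 261. The comparison of the 249 sites was not itself repeated under other settings. Over all clustered sites the order of the medians was not stable. The replicate 2 peaks were also wider at clustered sites, with a median of 402 bp over the 279 peaks (388 to 415 bp), against 345 bp (334 to 356 bp) at isolated sites. Midpoints of the paired peaks were close in both sets: the median distance between the replicate 1 and replicate 2 midpoints was 38.8 bp at clustered and 28.3 bp at isolated sites.

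**Figure D3:**
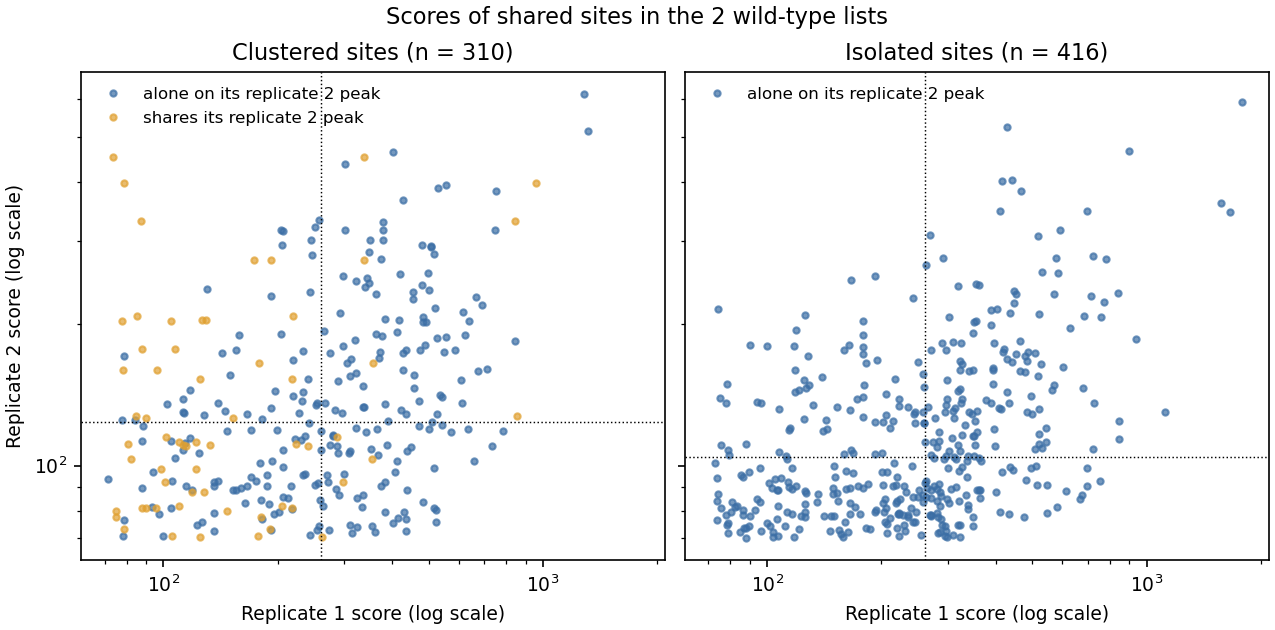
Replicate 2 score against replicate 1 score, both on log axes, for the 310 clustered sites (left) and the 416 isolated sites (right); each point is a site, orange points share their replicate 2 peak with another site, and dotted lines mark the medians of each panel. The dotted vertical lines nearly coincide (259 and 261), the horizontal line is higher on the left (124 against 104), and the orange points lie mainly at low replicate 1 scores.

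Clustered sites also had more replicate 1 peaks without replicate 2 support around them. Such a peak lay within 50 kb of 273 of the 310 clustered sites, or 88.1% (83.9 to 91.5%). It did so at 279 of the 416 isolated sites, or 67.1% (62.3 to 71.6%), and at 64.2% of all replicate 1 peaks, so the isolated sites were near the background and the clustered sites above it. With peaks up to 1 kb away set aside, the shares were 87.7% and 63.9%. The median number of such peaks was 3 per clustered site (range 0 to 11) and 1 per isolated site (0 to 10), and 3 or more were found at 165 clustered sites, or 53.2%, and 93 isolated sites, or 22.4%. The rule set these peaks apart for meeting no replicate 2 peak. It also chose clustered sites for having further replicate 1 peaks within the same 50 kb. The difference from isolated sites may thus be partly built in, and it was not tested. Sites of 1 cluster share many of these peaks, and all come from the same library.

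Inside the clusters, between first and last site, lay 125 replicate 1 peaks that replicate 2 did not list, spread over 56 of the 123 clusters. Their median replicate 1 score was 122 (103 to 136), against 103 for all 7236 such peaks and 259 for the clustered sites. The replicate 2 list is the shorter one, so a missing counterpart there does not show that a site is unbound. In the other direction, a replicate 2 peak without replicate 1 support lay within 50 kb of 39 clustered sites, or 12.6% (9.10 to 16.8%), and of 15 isolated sites, or 3.61% (2.03 to 5.88%), while 2.79% of all replicate 1 peaks had one. Of the 39 sites, 17 lay in the 8 clusters with a KO peak within 50 kb, which are described with the KO peaks. Without those clusters, a setting chosen after seeing the data, the share was 22 of 287, or 7.67% (4.87 to 11.4%), and that for unsupported replicate 1 peaks was 87.1% (82.7 to 90.8%). Sites of 1 cluster can count the same unsupported replicate 2 peak. The rule also asked clustered sites for a neighbour in both lists, so this difference may be partly built in as well. It was not tested.

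**Figure D4:**
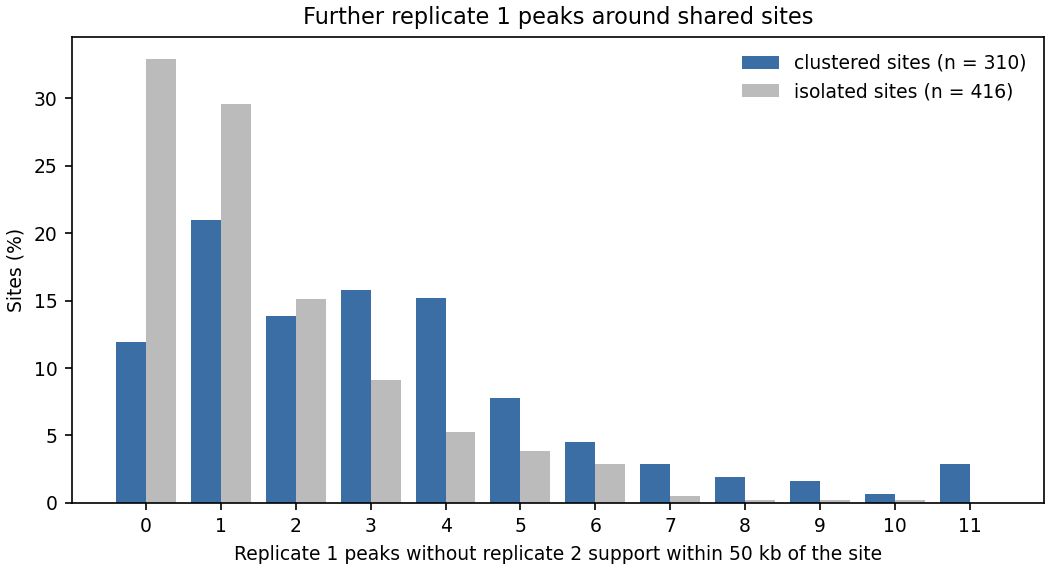
Share of sites in percent (y axis) by the number of replicate 1 peaks without a replicate 2 peak within 50 kb (x axis), for the 310 clustered and 416 isolated sites. The bar at 0 is 11.9% for clustered and 32.9% for isolated sites, and clustered sites have the higher bar at every count from 3 to 11.

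Peaks of the KO library were also found near clusters more often than near isolated sites. By the rule no clustered site overlaps a KO peak. Within 50 kb, however, a KO peak lay near 21 clustered sites, or 6.77% (4.24 to 10.2%), and near 2 isolated sites, or 0.481% (0.0583 to 1.73%). Of all 7996 replicate 1 peaks, 0.975% had a KO peak that near and none on them. The 21 sites belonged to 8 of the 123 clusters and involved 15 of the 78 KO peaks, of which 14 overlapped a WT peak of their own. The clustered share thus rests on 8 places in the genome. With replicate 1 shortened to its 851 highest peaks it was 1.77%.

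One of them was chr12:55815132-55830698, where 2 sites with replicate 1 scores of 182 and 87.8 and replicate 2 scores of 126 and 113 stood among 4 KO peaks with scores of 81.5 to 104. The nearest was 3346 bp away. Around the pair at chr11:87558466-87565439 there were 3 KO peaks, the highest of which scored 299 in the KO library and met a replicate 2 peak of 245. At chr11:87236285-87285133, KO peaks scoring 113 and 93.8 lay between the first and the second of 3 sites. At chr6:129158891-129235210, a KO peak with a score of 557, at which replicate 2 scored 786 and replicate 1 79.9, lay between the last 2 of 4 sites. The last, chr6:129234458-129235210, began 17428 bp after it and scored 622 in replicate 1 and 189 in replicate 2.

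At chr17:35352012-35357123, 15773 bp from a KO peak of 140, 4 replicate 1 peaks lay on 2 replicate 2 peaks, and 11 unsupported replicate 1 peaks surrounded each. The other 3 of the 8 clusters, on chromosomes 11, 13 and 16, had their nearest KO peak, with a score of 145, 104 and 99.8, at 3987, 5604 and 2808 bp. The 23 sites of these 8 clusters had a median replicate 1 score of 153 (110 to 218), and the 287 sites of the other 115 clusters had a median of 266 (243 to 299). Their replicate 2 medians, 121 and 124, differed little. Without the 8 clusters, 287 of 703 shared sites were clustered, or 40.8%.

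The clusters were spread over all 19 autosomes. None was on X, which held 6 shared sites, all of them isolated; 0 of 6 allows a clustered share of up to 45.9%. Chromosome 4 had the most clustered sites, 34 in 11 clusters, or 69.4% (54.6 to 81.7%) of its 49 shared sites. Chromosome 5 had 6 in 2 clusters, or 20.0% (7.71 to 38.6%) of its 30. On the other 17 autosomes the share ranged from 31.0% to 52.0%, and each of their intervals included the 42.7% of all shared sites. Per length, chromosomes 4 and 19 had 0.218 and 0.212 clustered sites per Mb and chromosome 5 had 0.0393. Chromosome 11, which was densest in replicate 1 peaks at 5.10 per Mb, had 0.164. Chromosomes 4 and 5 were picked out after their values were seen, among 20 compared, and no test of them was made.

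**Figure D5:**
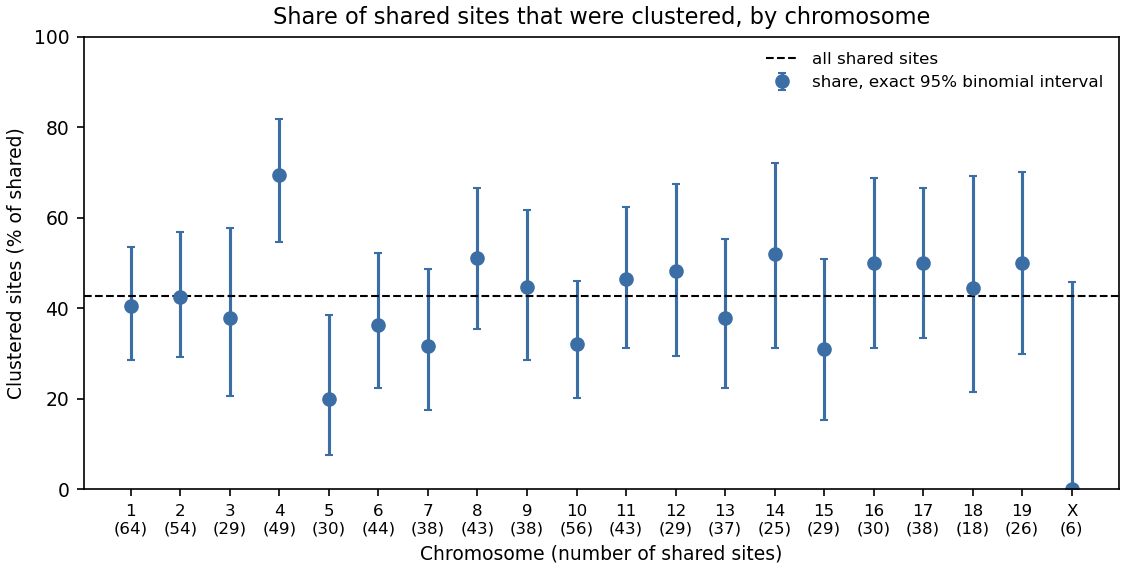
Share of shared sites that were clustered, in percent (y axis), on each chromosome (x axis, with the number of shared sites in brackets); points are shares, bars exact 95% binomial intervals over sites, and the dashed line is the 42.7% of all shared sites. Chromosome 4 stands above the line at 69.4% and chromosome 5 below it at 20.0%, while the bars of the other chromosomes cross the line.

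Some clusters lay near one another in turn. In 10 places 2 clusters were within 200 kb, and in 6 of them within 100 kb, so that 20 of the 123 clusters, or 16.3%, had such a neighbour. The pairs with most sites were the 6 and 4 sites on chromosome 4 described above and a pair on chromosome 2. There, chr2:128203502-128259653 and chr2:128324353-128370838 held 4 sites each and stood 64.7 kb apart. Their highest replicate 1 scores were 288 and 434 and their highest replicate 2 scores 281 and 275. On chromosome 4, the cluster of 5 sites at 88647432 was followed after 90.2 kb by a cluster of 2. The nearest clusters, 59.0 kb apart, were 2 pairs of sites on chromosome 18, at chr18:65478703-65482364 and chr18:65541385-65565407. With a gap of 100 kb or less in the rule, these 6 places would each become 1 cluster.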

How the data were processed

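ChIP-seq peak lists of 3 libraries were used: WT replicates 1 and 2 and the T-bet KO library, grouped by their titles. Per the submitters' processing notes, reads were handled with CASAVA and Bowtie2, peaks with MACS 1.4, and the build was mm9. For settings, read filters and the control of each call, the sources used here give nothing. Each list belongs to 1 library, without a header. The score deposited by the authors in the last column is the peak caller's value per peak, and its scale is not stated. Depth is unknown, and the inputs were not analysed here.

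Starts were taken as counted from 0, as the BED format has it, and are printed counted from 1. Peaks sharing 1 bp or more were counted as overlapping, gaps run from the end of a site to the start of the next, and chains of gaps up to 50 kb formed clusters. Where a site is given a replicate 2 score, it is that of the peak it overlapped, and no shared site overlapped more than 1. Shares carry exact 95% binomial (Clopper-Pearson) intervals, and medians carry exact 95% binomial intervals from order statistics. Both cover counting error over sites only. With 1 KO library and no reads, no test across samples could be made. The overlap and chaining steps were tested on simulated data. Chromosome lengths came from GenomeInfoDb 1.38.1 (R 4.3.3); figures were drawn with matplotlib 3.10.9, and everything else ran in Python 3.11.15 with scipy 1.17.1 and numpy 2.4.6.

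Named in full by rule were the sites of the 3 clusters with most sites (of the 4 clusters tied at 5 sites, the 2 with the highest summed replicate 1 score) and the 10 highest sites by each score. The closest pairs and the pairs on either side of the limit were also chosen by rule. Of these, the pair nearest the limit on each side and the closest pair are given with coordinates, and the rest as ranges. Further sites were picked with their values in view. The rule for the sites and the comparisons were chosen with earlier results of these data known. The gene table at hand is of another build (GRCm38), so no site was assigned to a gene, no sequence of a site was read, and the planned motif and gene results were not run.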

Additional observations from a re-analysis of the deposited data

How the results depend on the processing

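The number of clustered sites (310), of clusters (123) and their share of the shared sites (42.7%) were recomputed under 16 alternatives, 2 of them (the shortened replicate 1 list and the removal of clusters near KO peaks) chosen after seeing the data. With a gap of 10 kb there were 184 sites in 81 clusters, or 25.3%; the share was 34.3% with 25 kb and 49.7% with 100 kb. With scores of 100 or more there were 154 sites in 68 clusters, or 37.8%, and with replicate 1 shortened to its 851 highest peaks 113 sites in 50 clusters, or 30.2%. The share was 36.6% with a reciprocal overlap of 50%, 35.7% with replicate 1 peaks within 1 kb joined, and 38.0% both with sites on the same replicate 2 peak counted as 1 and with positions taken from replicate 2. Leaving out a WT replicate gave 312 to 5306 sites, 125 to 1581 clusters and 38.8 to 66.7%, the lower values without replicate 1 and the higher without replicate 2. Without replicate 2 the set is every replicate 1 peak that met no KO peak, a far longer list.

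The order of the replicate 1 medians of all clustered and all isolated sites was not stable. With peaks within 1 kb joined, each joined peak carried the highest score of its parts, so the lower scores dropped out by construction. Clustered sites were higher in that setting (292 and 262) and with the reciprocal overlap (311 and 274). They were also higher with the shortened list (408 and 357) and with sites on the same replicate 2 peak counted as 1 (288 and 261). They were lower with a gap of 10 kb (241.6 and 262.5) or 25 kb (240.5 and 269) and with scores of 100 or more (299 and 336). The order of the replicate 2 medians held in the 2 settings that gave them, 125 and 105 with positions from replicate 2 and 119.5 and 97.0 without replicate 1. The share of clustered sites with a KO peak within 50 kb was 1.36% without replicate 2 and 1.77% with the shortened list, against 6.77%. No paired analysis was possible because the KO group has 1 library and no test across samples was made. The depth of the libraries is unknown, and its part in the counts was not tested.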
